A study of Mus musculus with 32 samples.

Results

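10 transcription factors that build or mark the trophoblast, the lineage that forms the placenta, were followed through all 32 libraries of the mouse embryonic stem cell (ESC) line C1. They are Gata2, Gata3, Tfap2a, Tfap2c, Elf3, Elf5, Eomes, Cdx1, Cdx2 and Hand1. They were listed by name, as genes that specify or maintain trophoblast or are known from it. All 10 were found in the deposited tables by their Ensembl identifier, among 31053 genes. Elf3, Tfap2c, Eomes, Gata3, Gata2 and Cdx1 were called lower in each of the 5 comparisons of day 4 with day 0, in which 45.8 to 55.7% of all genes were called, no member was upregulated in any of them, and Elf5 and, outside 1 group, Cdx2 stayed at the counting floor throughout. Gata2 and Cdx1 passed the filter on low counts through the day 0 libraries, and the calls of Gata2 in 1 comparison (C1T vs C1) and of Eomes in another (C1MDT vs C1M) were lost on leaving out 1 library.

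C1 cells lack endogenous β-catenin (Ctnnb1) and carry a fusion of mCherry and a constitutively active β-catenin behind a destabilizing domain, so that doxycycline (dox) starts transcription of the fusion and trimethoprim (TMP) keeps its protein. All 32 libraries come from this single line, in 8 groups of 4 libraries. C1, C1M and C1H were collected in pluripotent culture at day 0. C1 had received 10 μM TMP alone for 48 h, and C1M and C1H are the fractions with middle and high mCherry signal, sorted from cells given 100 ng/mL dox and 10 μM TMP for 48 h. The other groups were collected after 4 days in a medium without the factors that hold pluripotency. C1T came from C1 cells and had TMP alone, C1MV and C1HV came from C1M and C1H cells and had no inducer, and C1MDT and C1HDT had both dox and TMP. Every group, the controls C1 and C1T included, lacks endogenous β-catenin and was exposed to TMP before differentiation, and no group with endogenous β-catenin is compared here. RNA was read from the 3′ ends of transcripts (QuantSeq), and the libraries held from 1366951 to 3648787 reads assigned to genes. Levels are given as CPM, counts scaled to a common library total, after scaling with edgeR's TMM factors, and a group whose 4 libraries each held 3 counts or fewer was taken as at the floor, equal to 0.822 to 2.19 CPM across libraries.

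In the embryo, trophectoderm arises when TEAD4 and YAP in the outer cells of the morula switch on Cdx2 and Gata3, while inner cells keep the pluripotency factors. Cdx2, Eomes, Elf5 and Tfap2c then hold trophoblast stem cells in their state under FGF4, and Gata2, Tfap2a and Hand1 act in their differentiated descendants, Hand1 above all in giant cells. Several of these genes work elsewhere too. Tfap2c is active in naive ESCs and in germ cells, Eomes in the primitive streak, Cdx1 in the posterior embryo as a target of Wnt signalling, Hand1 in mesoderm, and Elf3 in many epithelia.

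Ctnnb1, the gene removed from this line and returned by the fusion, was examined first. It lay between 5.19 and 11.0 CPM in the C1 libraries, between 9.45 and 17.7 CPM in C1M and between 34.9 and 48.7 CPM in C1H. At day 4 it lay between 7.18 and 12.4 CPM in C1T, between 6.90 and 12.1 CPM in C1MV, between 25.4 and 34.05 CPM in C1MDT, between 4.13 and 8.60 CPM in C1HV and between 28.2 and 36.3 CPM in C1HDT. Every library of C1H, C1MDT and C1HDT was thus above every library of the other groups, while C1M, which had also been given dox, overlapped with C1 (log2 difference 0.61 ± 0.25, edgeR adjusted p = 0.0551). Reads of the fusion and of what is left of the endogenous gene cannot be told apart in these counts.

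Elf3 encodes an ETS-domain factor of epithelia that is also found in trophectoderm, and lies on chromosome 1 from 135253575 to 135258568 of GRCm38, minus strand. Gata3, on the minus strand of chromosome 2 from 9857078 to 9890034, encodes a zinc-finger factor that acts beside Cdx2 in trophectoderm. Eomes, a T-box factor on the plus strand of chromosome 9 from 118478212 to 118486132, is needed for trophoblast stem cells to proliferate. For these 3 of the 6 members that fell in all 5 comparisons with day 0, the 250 bases before a RefSeq start are shown. They are examples of an ETS, a GATA and a T-box factor, each with a single window. The windows, from RefSeq (GRCm38.p6), are written 5′ to 3′ in the direction of the gene. They are chr1:135258473-135258722 (minus strand) for Elf3, chr2:9878601-9878850 (minus strand) for Gata3 and chr9:118477939-118478188 (plus strand) for Eomes. RefSeq starts need not be the ends of the gene spans given above. The Gata3 window lies inside its span, and the Elf3 window overlaps the end of its span. Capitals mark matches, on either strand, to the letters of 6 motifs. AP-2 factors were searched for as GCCNNNGGC, ETS factors as CCGGAA, the GATA family by the letters AGATAA, the T-box family as GGTGTGA and TCF/LEF factors as CTTTGAT, besides the CCAAT box.
Elf3: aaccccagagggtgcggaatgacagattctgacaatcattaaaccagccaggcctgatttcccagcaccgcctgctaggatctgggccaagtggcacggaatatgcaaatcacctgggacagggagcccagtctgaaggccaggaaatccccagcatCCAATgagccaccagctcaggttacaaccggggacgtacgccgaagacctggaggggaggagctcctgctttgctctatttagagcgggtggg
Gata3: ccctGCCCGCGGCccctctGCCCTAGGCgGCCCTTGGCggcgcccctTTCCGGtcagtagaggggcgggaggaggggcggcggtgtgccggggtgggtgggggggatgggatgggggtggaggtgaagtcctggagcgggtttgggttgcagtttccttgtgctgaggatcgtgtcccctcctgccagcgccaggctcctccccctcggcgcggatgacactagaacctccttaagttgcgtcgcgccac
Eomes: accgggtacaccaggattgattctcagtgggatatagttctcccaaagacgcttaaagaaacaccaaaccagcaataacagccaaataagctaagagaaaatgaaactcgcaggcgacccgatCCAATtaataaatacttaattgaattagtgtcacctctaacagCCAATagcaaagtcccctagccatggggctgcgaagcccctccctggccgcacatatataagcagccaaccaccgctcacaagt
The Gata3 window held 3 AP-2 matches, at 246, 231 and 221 bases before the start, and 1 ETS match at 203 bases. The Elf3 window held a CCAAT box at 93 bases, and the Eomes window held 2, at 127 and 84 bases. No capitals overlap another motif. Of the 32851 promoter windows of the same length, 13.7% held the AP-2 letters, 12.0% the ETS letters, 9.99% the GATA letters, 3.33% the T-box letters, 3.21% the TCF/LEF letters and 33.8% a CCAAT box. Across the 7 members with a window in the table (Gata2, Gata3, Tfap2a, Elf3, Elf5, Eomes and Cdx2), AP-2 letters were in those of 3, the CCAAT box in those of 4, and ETS, T-box and TCF/LEF letters in that of 1 member each, the last 2 both in Elf5. GATA letters were in none of them. These matches are descriptions of the letters in the windows only.

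At day 0, the question is whether these factors differed between cells with and without induced exogenous β-catenin while still in pluripotent culture. C1M and C1H differ from C1 by the dox and the selection on mCherry as well as by the fusion, and these cannot be told apart here. Of the 9 members that could be tested (Elf5 did not reach 1 CPM in 4 libraries), 1 was downregulated and none upregulated in C1M vs C1, where 26.3% of all 15280 genes tested were called by edgeR at an adjusted p under 0.05. In C1H vs C1 edgeR called 0 of the 9, against 25.9% of all genes, and 0 members had an unadjusted p under 0.05 there or were called by DESeq2. In C1H vs C1M edgeR called 0 members against 1.77% of all genes. There 1 member had an unadjusted p under 0.05, and DESeq2 called 0 and gave no adjusted p for 7.

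The gene that fell was Eomes. It had 40.7, 37.9, 43.6 and 39.7 CPM in the C1 libraries and 28, 27.7, 22.2 and 29.7 CPM in those of C1M. Every C1 library was above every C1M library, and the log2 fold change was -0.60 ± 0.16 (SE, n = 4 per group, edgeR adjusted p = 0.00231). In C1H Eomes had 36.1, 32.8, 28.6 and 34.9 CPM, also below all C1 libraries, but the change of -0.29 ± 0.16 did not pass the test (edgeR adjusted p = 0.163), and the difference between C1H and C1M was 0.31 ± 0.16 (edgeR adjusted p = 0.419). Among the day 0 groups C1M had the lowest mean, but C1M and C1H overlapped and did not differ past the threshold.

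The other members with appreciable counts kept their level at day 0 within the spread of the libraries. Elf3 had means of 97.0 ± 12.0, 89.5 ± 6.92 and 94.5 ± 6.75 CPM (SD, n = 4) in C1, C1M and C1H. The corresponding means of Tfap2c, the AP-2 factor of trophoblast stem cells, naive ESCs and germ cells, were 195 ± 17.1, 207 ± 1.77 and 194 ± 17.8 CPM. In C1H vs C1 the log2 change was -0.04 ± 0.11 for Elf3 and -0.01 ± 0.09 for Tfap2c (SE), so that these 2 genes are measured closely. Gata3 was more variable, with 18.9, 11.3, 7.26 and 19.1 CPM in C1, 12.7, 16.0, 12.7 and 11.1 CPM in C1M and 12.9, 9.06, 14.3 and 5.46 CPM in C1H. Its groups overlapped, and its change in C1H vs C1 was -0.45 ± 0.27 (edgeR adjusted p = 0.235).

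Cdx1, a caudal-type homeobox gene known as a target of Wnt signalling, was low at day 0. The C1 libraries held 7, 13, 5 and 3 counts, the C1M libraries 15, 12, 8 and 8, and the C1H libraries 13, 8, 10 and 17. These ranges overlapped, and the log2 changes of 0.23 ± 0.48 in C1M vs C1 and 0.35 ± 0.47 in C1H vs C1 did not pass the test (edgeR adjusted p = 0.777 and 0.636). Gata2, which works with Gata3 in trophoblast giant cells, held 6, 1, 5 and 6 counts in C1, 9, 8, 15 and 5 in C1M and 12, 11, 10 and 7 in C1H. All C1H libraries were above all C1 libraries on the CPM scale, yet the change of 0.73 ± 0.53 was not called (edgeR adjusted p = 0.335).

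**Figure D1:**
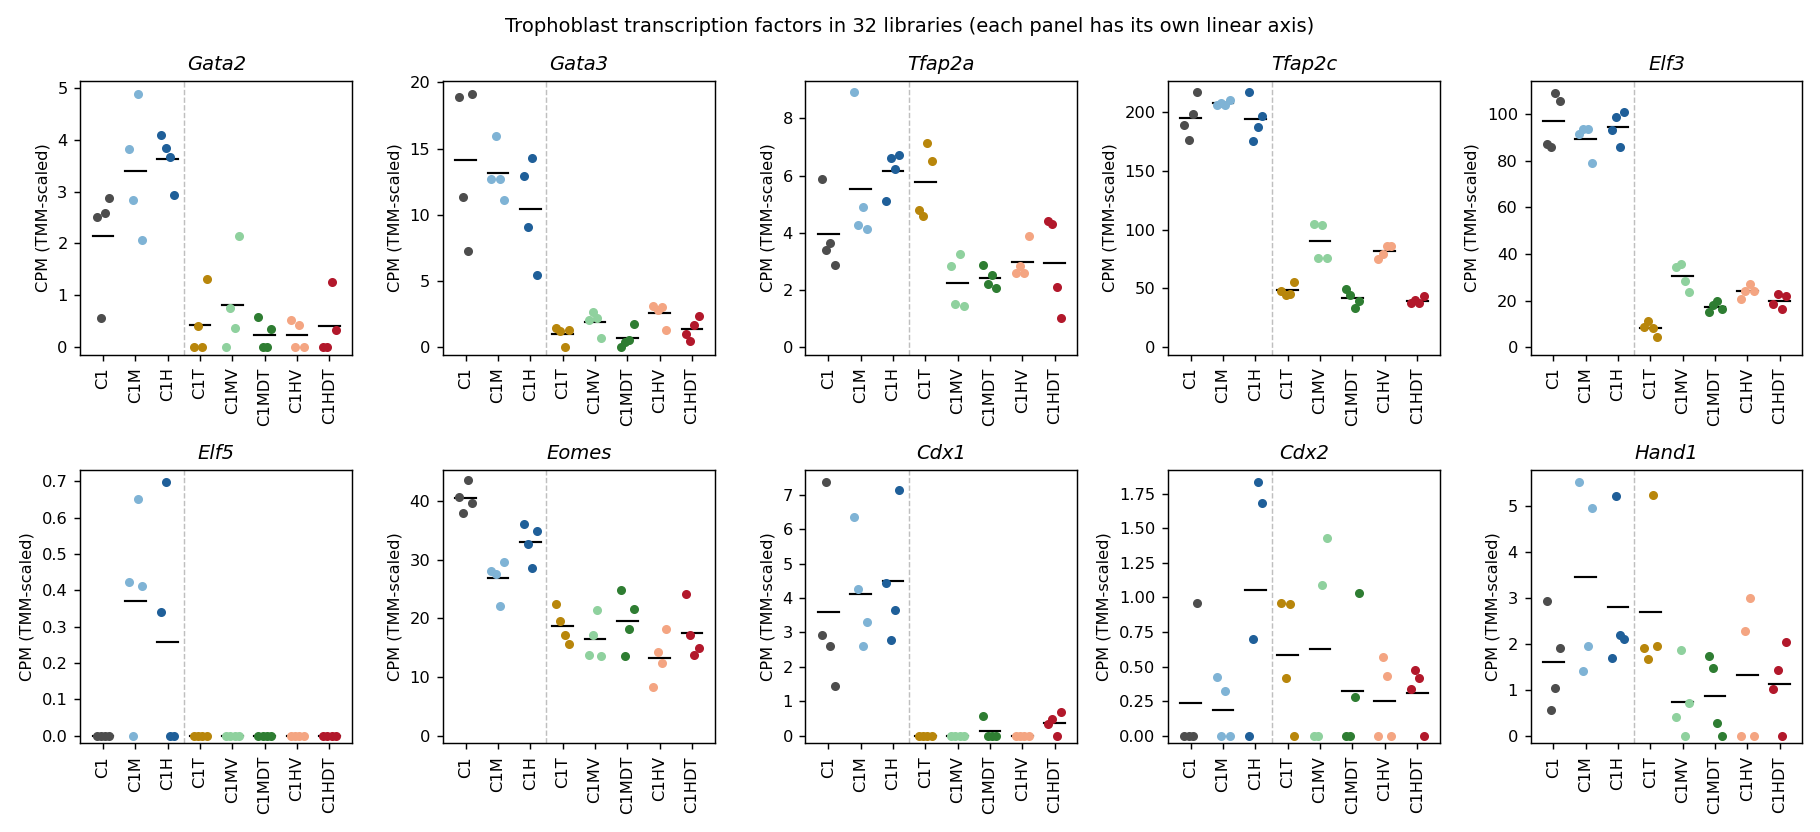
CPM (TMM-scaled, linear axis, own range per panel) of the 10 transcription factors in each of the 32 libraries, by group; points are libraries, horizontal lines are group means, and the dashed line separates day 0 (left) from day 4 (right). Elf3, Tfap2c and Gata3 are lower in every day 4 library than in any day 0 library, with Elf3 lowest in C1T, while Elf5 and Cdx2 are near 0 in most libraries.

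From day 0 to day 4, each day 4 group was compared with the day 0 group it came from. In C1T vs C1, 6 of the 9 tested members were downregulated and none upregulated, with a median log2 fold change over the 9 of -2.03, beside 49.2% of all genes called and a median of 0.01 over all genes. In C1MV vs C1M, 8 were downregulated and the median was -1.53 (45.8% of all genes called, median -0.04). The same count, 8, with a median of -2.34, was found in C1MDT vs C1M (52.4%, median -0.06). In C1HV vs C1H, 7 were downregulated, with a median of -1.76 (47% of all genes called, median -0.06), and in C1HDT vs C1H also 7, with a median of -2.24 (55.7%, median -0.06). C1MV and C1MDT share their day 0 libraries, as do C1HV and C1HDT. The 9 include members that are present only in the day 0 groups and passed the filter through them, so the counts and medians describe the set and were not tested as a set. The share of unique reads assigned to no gene also differed by day, at 19.5 to 23.1% in the 12 day 0 libraries and 10.1 to 15.7% in the 20 day 4 libraries, and its part in these results was not tested. In bulk libraries, fewer cells that express a gene and less RNA per cell cannot be told apart.

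Elf3 fell furthest in the cells that never had dox. At day 0 the 12 libraries lay between 79.2 and 109 CPM. The C1T libraries had 8.63, 11.2, 8.10 and 4.57 CPM. The level in C1T was 0.0878 of that in C1, a log2 fold change of -3.51 ± 0.17 (SE, edgeR adjusted p = 1e-44). In C1MV Elf3 had 34.3, 35.6, 28.3 and 23.5 CPM, in C1HV 20.7, 23.9, 27.1 and 24.1, in C1MDT 15.0, 18.1, 19.8 and 16.5, and in C1HDT 18.7, 22.9, 16.3 and 22.1. All 16 of these libraries were above all 4 of C1T and below all of day 0. The log2 changes from day 0 were -1.53 ± 0.13 in C1MV, -1.97 ± 0.14 for C1HV, -2.34 ± 0.13 for C1MDT and -2.24 ± 0.13 in C1HDT, with edgeR adjusted p-values of 2.27e-22, 1.59e-28, 6.46e-36 and 6.92e-35.

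Tfap2c, on the plus strand of chromosome 2 from 172549593 to 172558622, followed a different order at day 4. It had 47.958, 44.5, 44.8 and 55.5 CPM in C1T, 49.6, 44.2, 33.5 and 39.2 in C1MDT and 37.4, 40.1, 37.26 and 43.9 in C1HDT. In the groups without inducer it had 105, 75.7, 104 and 75.6 CPM (C1MV) and 75.4, 79.0, 86.4 and 85.8 CPM (C1HV). The 8 libraries of the last 2 groups were above all others of day 4, and all 20 day 4 libraries were below the lowest of day 0, at 175 CPM. The log2 changes from day 0 were -2.03 ± 0.11 in C1T, -1.19 ± 0.09 in C1MV, -2.35 ± 0.10 for C1MDT, -1.25 ± 0.10 for C1HV and -2.29 ± 0.10 in C1HDT (SE; the largest of the 5 edgeR adjusted p-values was 9.37e-24).

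Gata3 fell in all 5 comparisons. Its counts were 3, 3, 0 and 2 in C1T, which is at the floor, 5, 7, 6 and 1 in C1MV, 0, 1, 2 and 5 for C1MDT, 6, 5, 7 and 2 for C1HV and 3, 1, 4 and 7 in C1HDT. Over the group, C1 held 119 counts and C1T 8, so that the level in C1 was 14.8 times that in C1T after scaling, with an exact 95% counting interval from 7.27 to 35.04. The log2 changes were -2.67 ± 0.37 in C1MV, -4.08 ± 0.43 for C1MDT, -1.98 ± 0.38 for C1HV and -2.83 ± 0.39 in C1HDT, with edgeR adjusted p-values of 2.66e-10, 8.49e-16, 3.5e-06 and 2.2e-10. The value in C1MDT rests on few reads and was -4.94 without C1MDT replicate 4. Genes that overlap Gata3 held 0 and 1 counts (opposite strand) and 6 counts (same strand, 9230102O04Rik) over all libraries. The effect of this overlap on the Gata3 counts was not tested.

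Eomes fell in all 5 comparisons and stayed above the floor. At day 4 it had 22.5, 19.6, 17.2 and 15.7 CPM in C1T, 13.7, 17.2, 21.4 and 13.5 in C1MV and 24.8, 13.6, 18.1 and 21.7 in C1MDT. In C1HV it had 8.26, 14.2, 12.5 and 18.2 CPM and in C1HDT 24.1, 17.2, 13.8 and 15.0. The 5 day 4 groups overlapped one another. Against day 0, every library was lower in C1T, C1MV, C1HV and C1HDT, with log2 changes of -1.10 ± 0.18, -0.66 ± 0.18, -1.34 ± 0.19 and -0.90 ± 0.17 (edgeR adjusted p = 3.79e-08, 0.00124, 9.68e-10 and 1.75e-06). In C1MDT vs C1M the libraries overlapped, and the change of -0.48 ± 0.17 (edgeR adjusted p = 0.0143) was -0.34 and no longer called without C1MDT replicate 2.

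Cdx1 and Gata2 went from low counts at day 0 to the floor at day 4 in all 5 groups. Cdx1 had 0 counts in all 12 libraries of C1T, C1MV and C1HV, 1, 0, 0 and 0 in C1MDT and 1, 1, 0 and 2 in C1HDT. Against 3 counts per library, its level was at least 2.36-fold lower in C1T than in C1, at least 2.97-fold lower in C1MV than in C1M and at least 2.77-fold lower in C1HV than in C1H. With dox and TMP kept on, the 43 counts of C1M stood against 1 in C1MDT, a ratio of 44.1 with an exact 95% counting interval from 7.50 to 1781, and the 48 of C1H against 4 in C1HDT, a ratio of 11.4 with an interval from 4.17 to 43.5. The single C1MDT read was in replicate 1, without which that group held 0 counts. edgeR called Cdx1 in each of the 5 comparisons, but the gene reached 1 CPM in the 12 day 0 libraries and in no day 4 library, so that it passed the filter through day 0 alone and these calls are no independent support for the fall. These intervals and floors cover counting error only.

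Gata2 held 0, 1, 0 and 2 counts in C1T, 0, 2, 1 and 3 in C1MV, 1, 0, 0 and 1 for C1MDT, 1, 0, 1 and 0 for C1HV and 0, 0, 3 and 1 in C1HDT. The level at day 0 was 5.96 times that at day 4 in C1 against C1T (exact 95% counting interval 1.74 to 31.6), 5.38 times in C1M against C1MV (2.25 to 15.6) and 19.0 times in C1M against C1MDT (4.89 to 162). It was 13.9 times in C1H against C1HV (3.59 to 118) and 9.49 times in C1H against C1HDT (3.43 to 36.5). edgeR called each of these, but Gata2 reached 1 CPM in 11 of the 12 day 0 libraries and in 3 at day 4, so that it too passed the filter through day 0 and the calls are no independent support. Libraries of the 2 days overlapped in C1T vs C1 and in C1MV vs C1M only. The fitted log2 change of C1T vs C1, -2.40 ± 0.84, was -3.46 without C1T replicate 4, and it lost its call without C1T replicate 1 (-2.01) or replicate 3 (-2.01). Without C1HDT replicate 3 the change in C1HDT vs C1H was -4.38 in place of -3.07, and without C1MV replicate 4 the change in C1MV vs C1M was -3.02 in place of -2.30.

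Tfap2a, the AP-2 factor of surface ectoderm, neural crest and differentiating trophoblast, fell from day 0 in the 4 groups that had been given dox and not in C1T. It held 14, 6, 7 and 6 counts in C1, 21, 12, 15 and 10 in C1M and 15, 19, 17 and 16 in C1H. In C1T it held 10, 11, 15 and 10 counts, a mean of 5.76 ± 1.27 CPM (SD) against 3.94 ± 1.33 CPM in C1, and the log2 change of 0.50 ± 0.39 was not called (edgeR adjusted p = 0.294). The mean was 2.25 ± 0.93 CPM in C1MV, 2.42 ± 0.36 for C1MDT, 2.98 ± 0.63 for C1HV and 2.96 ± 1.68 in C1HDT, and in each of these groups every library was below every library of its day 0 group. The log2 changes were -1.20 ± 0.40, -1.18 ± 0.39, -1.06 ± 0.40 and -1.07 ± 0.37 (SE, edgeR adjusted p = 0.0097, 0.00698, 0.0209 and 0.0097). These calls rest on few reads. C1MV vs C1M lost its call without C1M replicate 1 (-0.90) or C1MV replicate 2 (-1.01), C1MDT vs C1M without C1M replicate 1 (-0.88), C1HV vs C1H without C1HV replicate 1 (-1.005) or replicate 3 (-0.992), and C1HDT vs C1H without C1HDT replicate 4 (-0.76). Antisense genes that overlap Tfap2a held 43, 13 and 0 counts over all libraries.

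Hand1, the helix-loop-helix factor of giant cells and mesoderm, held 7, 1, 2 and 4 counts in C1, 13, 4, 6 and 12 in C1M, 5, 15, 6 and 5 in C1H and 4, 4, 11 and 3 in C1T. It held 1, 5, 0 and 1 in C1MV, 3, 4, 1 and 0 for C1MDT, 0, 4, 7 and 0 for C1HV and 3, 3, 0 and 6 in C1HDT. Libraries of day 0 and day 4 overlapped in all 5 comparisons. Hand1 was called in C1MV vs C1M (log2 change -2.08 ± 0.69, edgeR adjusted p = 0.00947) and in C1MDT vs C1M (-2.09 ± 0.67, edgeR adjusted p = 0.00583), and its changes were 0.66 ± 0.65 in C1T vs C1, -0.96 ± 0.65 in C1HV vs C1H and -1.26 ± 0.63 in C1HDT vs C1H, none of them called. The last passed the threshold without C1HDT replicate 4 (-1.75) and in a fit of only the groups compared (-1.25, edgeR adjusted p = 0.0484). The call in C1MV vs C1M was lost without C1MV replicate 3 (-1.61), and the change was -3.25 without C1MV replicate 2.

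Cdx2 and Elf5 were at or near the floor in all groups. Cdx2, the homeobox gene that sets trophectoderm apart, held 34 counts over the 32 libraries and was at the floor in 7 of the 8 groups. The exception was C1H, with 0, 2, 5 and 4 counts, while C1 held 0, 0, 0 and 2 and C1M 1, 0, 1 and 0. The 11 counts of C1H stood against 2 in C1, a ratio of 4.12 with an exact 95% counting interval from 0.898 to 38.2, and against 2 in C1M, a ratio of 5.38 with an interval from 1.17 to 49.9. Neither difference was called (edgeR adjusted p = 0.206 and 0.362), although C1H vs C1 passed the threshold without C1 replicate 4, the only C1 library with a Cdx2 read, which leaves that group at 0 counts. Elf5, which locks in the trophoblast fate once its promoter is unmethylated, held 7 counts over the 32 libraries, 4 of them in C1M (1, 0, 2 and 1) and 3 in C1H (1, 2, 0 and 0), and 0 in all libraries of the 6 other groups. At this depth no expression of Elf5 could be told from the floor in any group.

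**Figure D2:**
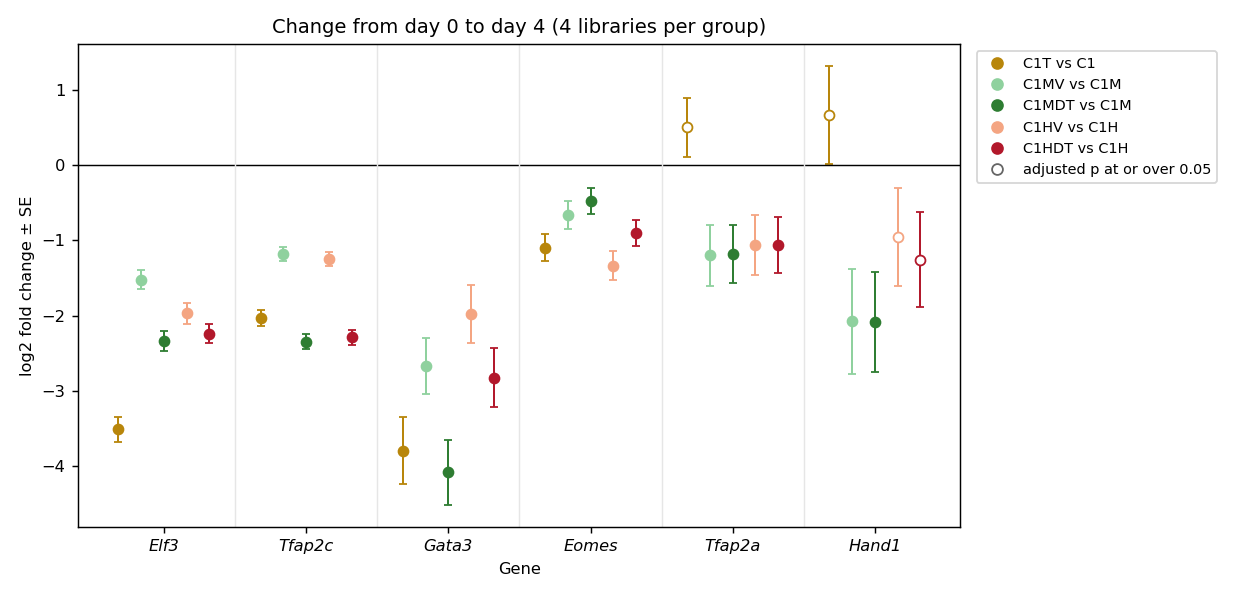
Log2 fold change from day 0 to day 4 (vertical axis) of Elf3, Tfap2c, Gata3, Eomes, Tfap2a and Hand1 in the 5 comparisons; points are edgeR estimates from 4 libraries per group, bars are their SE, and open points have an adjusted p at or over 0.05. Elf3 fell by 3.51 in C1T and by between 1.53 and 2.34 in the other groups, Tfap2c fell less in C1MV and C1HV than in the rest, and the Gata3 point of C1T rests on 8 counts.

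Whether these changes from day 0 differed from that of cells never given dox was tested directly, as the change in each group minus the change in C1T. C1T had TMP in the medium during differentiation, as C1MDT and C1HDT had, while C1MV and C1HV had none, so that for the latter pair earlier dox and the absence of TMP cannot be told apart. The 4 contrasts share the libraries of C1 and C1T. For C1MV against C1T edgeR called 2 of the 9 tested members with a higher and 2 with a lower response, where 22.5% of all genes were called. For C1MDT these counts were 1 and 2 (24.4% of all genes), for C1HV 3 and 1 (21.9%) and for C1HDT 1 and 1 (25.2%). Elf3 was in the higher group each time. Its response exceeded that of C1T by 1.98 ± 0.22 on the log2 scale in C1MV, 1.17 ± 0.24 for C1MDT, 1.54 ± 0.24 for C1HV and 1.27 ± 0.23 in C1HDT (SE, edgeR adjusted p = 2.53e-13, 3.34e-05, 4.36e-08 and 4.09e-06). Tfap2c was in the higher group for C1MV (0.84 ± 0.14, edgeR adjusted p = 7.37e-07) and C1HV (0.78 ± 0.15, edgeR adjusted p = 8.32e-06). In C1MDT and C1HDT its response differed from that of C1T by -0.32 ± 0.15 and -0.26 ± 0.15, which did not pass the test (edgeR adjusted p = 0.118 and 0.222).

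Tfap2a had a lower response than in C1T in all 4 contrasts, by -1.70 ± 0.56 in C1MV, -1.68 ± 0.55 for C1MDT, -1.56 ± 0.56 for C1HV and -1.57 ± 0.54 in C1HDT (edgeR adjusted p = 0.0174, 0.0151, 0.0309 and 0.0204). Each of these calls was lost on leaving out at least 1 library, and C1T replicate 3 was among those for C1HV (-1.42) and C1HDT (-1.43). The others were C1M replicate 1 for C1MV (-1.40) and C1MDT (-1.38), C1MV replicate 2 for C1MV (-1.51) and C1HDT replicate 4 for C1HDT (-1.25). For C1HV they were C1 replicates 2 (-1.50) and 4 (-1.43), C1T replicate 4 (-1.49) and C1HV replicates 1 (-1.50) and 3 (-1.49). Hand1 had a lower response in C1MV (-2.74 ± 0.96, edgeR adjusted p = 0.0275) and C1MDT (-2.75 ± 0.94, edgeR adjusted p = 0.022), and Gata3 a higher one in C1HV (1.82 ± 0.68, edgeR adjusted p = 0.041). The Hand1 call in C1MV was lost without C1 replicate 2 (-2.49) or 3 (-2.58), C1M replicate 1 (-2.43) or 4 (-2.51), C1T replicate 3 (-2.18), or C1MV replicate 1 (-2.53) or 3 (-2.27), and the value was -3.91 without C1MV replicate 2. In C1MDT it was lost without C1M replicate 1 (-2.44), C1T replicate 3 (-2.18), or C1MDT replicate 3 (-2.40) or 4 (-2.31). The Gata3 call was lost without C1 replicate 1 (1.65) or 4 (1.65), C1H replicate 2 (1.75) or 4 (1.62), C1T replicate 3 (1.41), or C1HV replicate 1 (1.73), 2 (1.78) or 3 (1.73), and DESeq2 did not make it either. Eomes was not called in any of the 4 contrasts. Its response in C1MDT, 0.62 ± 0.25 above that of C1T (edgeR adjusted p = 0.0568), passed the threshold on leaving out C1 replicate 2, C1M replicate 4, C1T replicate 1, C1MV replicate 3, C1MDT replicate 2, C1HV replicate 4 or C1HDT replicate 1 or 4, at between 0.64 and 0.75, and in a fit of only the groups compared (0.66, edgeR adjusted p = 0.0316).

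At day 4 itself, the groups were compared with C1T, whose libraries are shared by the 4 comparisons and which, unlike C1MV and C1HV, had TMP in the medium. edgeR called 2 members higher and 1 lower in C1MV vs C1T (30.2% of all genes called), 1 and 2 in C1MDT vs C1T (33.4%), 2 and 0 in C1HV vs C1T (28%) and 1 and 1 in C1HDT vs C1T (33.5%). With 9 members tested these shares are near those of all genes or below them, and they are carried by named genes. Elf3 was 3.65 times as high in C1MV as in C1T, 2.83 times in C1HV, 2.08 times in C1MDT and 2.35 times in C1HDT, without overlap of libraries. Its log2 differences were 1.87 ± 0.19, 1.5003 ± 0.21, 1.06 ± 0.21 and 1.23 ± 0.21 (SE, edgeR adjusted p = 9.18e-16, 7.3e-10, 1.22e-05 and 1.86e-07). Tfap2c was 1.91 times as high in C1MV (log2 0.93 ± 0.11, edgeR adjusted p = 2.83e-12) and 1.71 times in C1HV (0.77 ± 0.12, edgeR adjusted p = 1.41e-08), whereas its differences in C1MDT and C1HDT, -0.23 ± 0.12 and -0.27 ± 0.12, were not called, although all C1HDT libraries were below those of C1T.

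Tfap2a was lower than in C1T in C1MV (log2 -1.26 ± 0.42, edgeR adjusted p = 0.0135), C1MDT (-1.24 ± 0.40, edgeR adjusted p = 0.0105) and C1HDT (-0.96 ± 0.39, edgeR adjusted p = 0.0484), and in C1HV its difference of -0.95 ± 0.42 was not called (edgeR adjusted p = 0.0799). The libraries of C1T, at between 4.58 and 7.15 CPM, were above all libraries of the 4 groups. The call in C1HDT vs C1T was lost on leaving out any of 12 libraries, which included C1T replicates 1 (-1.03), 3 (-0.82) and 4 (-0.89) and C1HDT replicates 3 (-0.84) and 4 (-0.64). The other 7 were C1 replicates 1 and 2, C1H replicates 2 and 3, C1MV replicate 3, C1MDT replicate 4 and C1HV replicate 4, none of which is in either group and each of which left the value between -0.96 and -0.95. It was also lost with DESeq2 (-0.99, adjusted p = 0.0546), with library-size scaling (-0.93, edgeR adjusted p = 0.056) and with no filter (-0.96, edgeR adjusted p = 0.0748). C1MV vs C1T lost its call without C1T replicate 3 (-1.11) or C1MV replicate 2 (-1.07), and C1MDT vs C1T without C1T replicate 3 (-1.08). Hand1 was lower in C1MDT vs C1T (-1.79 ± 0.72, edgeR adjusted p = 0.044), with overlapping libraries, and this call was lost without C1T replicate 3 (-1.22), C1MDT replicate 3 (-1.44) or C1MDT replicate 4 (-1.35). A fit that blocked on replicate number did not call it either (-1.80), nor did DESeq2. In C1MV vs C1T the difference of Hand1 was -1.78 ± 0.74 (edgeR adjusted p = 0.0584), and it passed the threshold without C1T replicate 2 (-1.97), C1MV replicate 2 (-2.95), C1HV replicate 1 (-1.78) or C1HDT replicate 3 (-1.78). It also passed with no filter on low counts (-1.77, edgeR adjusted p = 0.0446) and in a fit of only the groups compared (-1.78, edgeR adjusted p = 0.0357). Eomes did not differ from C1T past the threshold in any of the 4 groups. Its differences lay between -0.54 and 0.02, the former in C1HV (± 0.22, edgeR adjusted p = 0.0528), where leaving out C1T replicate 4 (-0.58), C1HV replicate 4 (-0.69), C1MV replicate 4 (-0.54) or C1MDT replicate 2 (-0.54) brought it past the threshold.

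**Figure D3:**
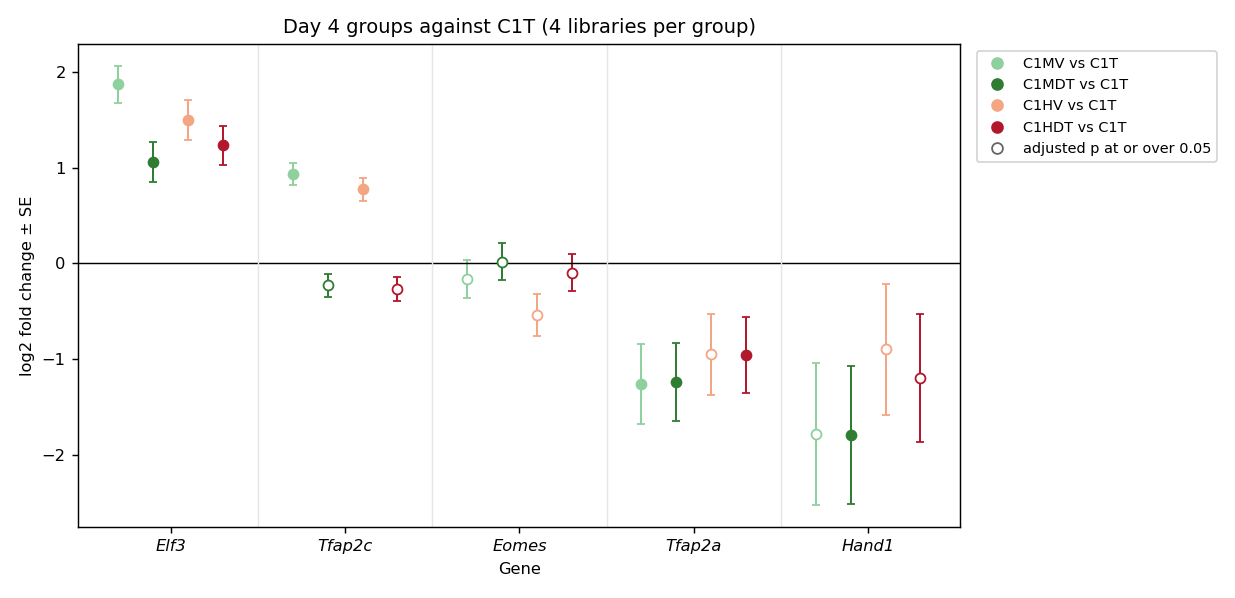
Log2 difference from C1T at day 4 (vertical axis) of Elf3, Tfap2c, Eomes, Tfap2a and Hand1 in C1MV, C1MDT, C1HV and C1HDT; points are edgeR estimates from 4 libraries per group, bars are their SE, and open points have an adjusted p at or over 0.05. Elf3 is higher than in C1T in all 4 groups (between 1.06 and 1.87), Tfap2c in the 2 groups without inducer only, and Tfap2a lies below C1T throughout.

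Keeping dox and TMP on during the 4 days, against withdrawing them, was compared within each sorted fraction. In C1MDT vs C1MV edgeR called 0 members higher and 2 lower (12.6% of all genes called), and in C1HDT vs C1HV 0 higher and 1 lower (15.9%). Tfap2c was the gene called in both, at 0.447 of the level without inducer in the middle fraction (log2 -1.16 ± 0.11, edgeR adjusted p = 7.91e-17) and at 0.486 in the high fraction (-1.04 ± 0.12, edgeR adjusted p = 4e-13), in each case without overlap. Elf3 was lower in C1MDT vs C1MV (-0.81 ± 0.16, edgeR adjusted p = 2.76e-05), also without overlap. In C1HDT vs C1HV its difference was -0.27 ± 0.17, with overlapping libraries (edgeR adjusted p = 0.316). Whether the effect of keeping the inducers differed between the fractions was tested as an interaction, in which edgeR called 0 of the 9 members and 0% of all genes. For Elf3 it was 0.55 ± 0.23 (edgeR adjusted p = 0.467) and for Tfap2c 0.12 ± 0.16 (edgeR adjusted p = 0.9). In that contrast 1 member and 1285 genes had an unadjusted p under 0.05, and DESeq2 called 20 genes and gave no adjusted p for the members. The difference of Gata3 in C1MDT vs C1MV was -1.41 ± 0.62 and was not called (edgeR adjusted p = 0.127), but it passed the threshold without C1MDT replicate 4 (-2.29).

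By adjusted p, the middle and high fractions themselves were hardly distinguishable at day 4. In C1HV vs C1MV edgeR called 0 members and 0.00654% of all genes, which is 1 gene. There 1 member and 1150 genes had an unadjusted p under 0.05, and DESeq2 called 0 members and 1 gene. In C1HDT vs C1MDT edgeR called 0 members and 0% of all genes, 0 members and 814 genes had an unadjusted p under 0.05, and DESeq2 called 0 members and 0 genes. The log2 difference of Tfap2c was -0.16 ± 0.11 in the first and -0.04 ± 0.12 in the second, and that of Elf3 -0.37 ± 0.16 and 0.18 ± 0.17. Across all 8 groups, the order of Elf3 means was C1 (97.0 CPM), C1H (94.5), C1M (89.5), C1MV (30.4), C1HV (23.9), C1HDT (20.0), C1MDT (17.3) and C1T (8.13). Of the neighbours in this order, C1M and C1MV differed past the threshold, as did C1MDT and C1T, and the other 5 pairs did not.

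The genes whose pattern over the 32 libraries was most like that of each member were found by Pearson's r of log2 CPM. The 12 day 0 and 20 day 4 libraries are separate clusters, which these values include, and the libraries share depth and scaling. They are descriptions only. Among the genes most like Elf3 were Mme (r = 0.972), a membrane metalloprotease, and Myof (0.969), a membrane repair protein. Tfap2c was most like Nanog (0.976), the pluripotency factor, Icam1 (0.975), a cell adhesion molecule, and Jam2 (0.974), a junctional adhesion molecule. For Gata3 they were Xaf1 (0.948), Tdrp (0.934) and Tfcp2l1 (0.933), the last a naive pluripotency factor, for Eomes Msh6 (0.894), Uso1 (0.887) and Tns1 (0.866), for Cdx1 Lrrc75aos2 (0.955), AI593442 (0.955) and Ak4 (0.950), and for Gata2 Cttnbp2 (0.906), Kcnh1 (0.888) and Clec4a1 (0.883). Tfap2a and Hand1 had lower values, led by Nqo1 (0.807) and Tmeff2 (0.779), then Cckbr (0.774) and Luc7l3 (0.769) for Tfap2a and Itga7 (0.668) and Ccdc96 (0.667) for Hand1. Within the 20 day 4 libraries, Elf3 was most like Cd9 (0.942), Rhox13 (0.939) and Zfp516 (0.938), and Tfap2c most like Ldhb (0.941), Ncam1 (0.936) and Nfkbia (0.930), while Hand1 was again most like Tmeff2 (0.775). Among the members, r over all libraries was 0.904 for Elf3 with Tfap2c, 0.901 for Gata3 with Tfap2c and 0.874 for Gata3 with Elf3. Within the 20 day 4 libraries the same pairs had 0.489, 0.516 and 0.404, and within the 12 day 0 libraries 0.152, 0.26 and -0.324. Over all libraries r lay between -0.04 and 0.19 for Cdx2 with each of the others.

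Related genes were followed through lists of named genes, whose counts of called genes are to be read beside the shares of all genes called, 49.2% in C1T vs C1, 45.8% in C1MV vs C1M, 52.4% in C1MDT vs C1M, 47% in C1HV vs C1H and 55.7% in C1HDT vs C1H. Of 15 upstream regulators and signals of trophoblast, 9 were lower and 4 higher in C1T vs C1, with a median of -0.96. Those with the smallest adjusted p were Klf5 (log2 -1.54 ± 0.07), Ets2 (-2.41 ± 0.11), Esrrb (-2.62 ± 0.10) and Fgf4 (-1.46 ± 0.09), of which Klf5, Esrrb and Fgf4 are equally genes of naive ESCs (edgeR adjusted p between 5.99e-50 and 3.01e-35). In C1MV vs C1M 7 were lower and 3 higher, in C1MDT vs C1M 9 and 3, in C1HV vs C1H 7 and 3 and in C1HDT vs C1H 10 and 3. Against C1T, 7 of the 15 were higher and 2 lower in C1MV, and 8 and 2 in C1HV. In C1MDT 4 were higher and 5 lower than in C1T, and in C1HDT 6 and 5. From 28 to 33.5% of all genes were called in these comparisons with C1T. Bmp4, a signal of extraembryonic ectoderm, was higher in C1T (mean 49.7 CPM) than in C1MV (9.25), C1MDT (4.52), C1HV (6.4001) and C1HDT (6.07), with log2 differences from C1T of -2.51 ± 0.22, -3.45 ± 0.23, -2.91 ± 0.24 and -3.04 ± 0.22 (edgeR adjusted p = 1.74e-20, 2.05e-28, 2.35e-22 and 1.93e-25).

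Of 20 markers of trophectoderm and placenta, 12 could be tested, and 6 of those were higher and none lower in C1M vs C1, and 5 and none in C1H vs C1, where 26.3% and 25.9% of all genes were called. They were led in C1M by Esx1 (3.55 ± 0.43), Rhox6 (1.85 ± 0.26), Rhox9 (2.39 ± 0.39) and Plet1 (1.73 ± 0.50), with edgeR adjusted p = 5.67e-12, 1.66e-09, 2.19e-07 and 0.00525. The first 3 are X-linked homeobox genes of placenta and germ line. In C1, 13 of the 20 markers were at the floor and 8 of the 20 had 0 counts. Esx1, Rhox9 and Plet1 had means of 0.998, 1.67 and 1.68 CPM in C1, so that their fold changes rest on few reads there. The summed level of the list lay between 25.5 and 30.6 CPM in C1, between 65.8 and 82.3 in C1M, between 67.6 and 88.3 in C1H, between 31.2 and 42.4 in C1T and between 66.1 and 100.4 CPM in the other day 4 libraries. Of the markers of differentiated placenta, the syncytin genes Syna and Synb, the prolactin family genes Prl2c2, Prl3d1 and Prl3b1, and Ctsq had 0 counts in all 32 libraries. Tpbpa had 2 counts and Plac1 16 over all libraries. Gcm1, a factor of syncytiotrophoblast, had 48 counts, with its highest mean in C1T (2.33 CPM), and Ascl2, a factor of spongiotrophoblast, had 406, with means between 2.33 CPM (C1) and 8.90 CPM (C1MDT). From day 0 to day 4 the list moved in both directions, with 2 higher and 1 lower in C1T, 4 and 2 in C1MV, 3 and 1 for C1MDT, 4 and 4 for C1HV and 4 and 5 in C1HDT, beside 45.8 to 55.7% of all genes called in either direction. The keratin genes Krt8 and Krt18, which trophectoderm shares with other epithelia and with extraembryonic endoderm, were higher than in C1T in all 4 groups, Krt8 by between 1.88 and 2.67 and Krt18 by between 1.16 and 1.51 on the log2 scale.

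Of 16 relatives of the members in the same gene families, 10 could be tested. Gata6 and Gata4, the GATA factors of primitive endoderm, rose in each of the 4 comparisons that start from C1M or C1H, by between 3.08 and 3.80 and between 1.54 and 2.13 on the log2 scale (edgeR adjusted p of 5.69e-08 or less), while Gata2 and Gata3 fell in the same libraries. In C1T, Gata6 rose by 1.16 ± 0.50 (edgeR adjusted p = 0.0445), with overlapping libraries. The other family members called from day 0 to day 4 were downregulated, 5 in C1T vs C1, 6 in C1MV vs C1M, 6 in C1MDT vs C1M, 5 in C1HV vs C1H and 6 in C1HDT vs C1H, among them the ETS factors Elf1 and Elf4. Of the 10 tested, 6 were called in either direction in C1T vs C1 and 7 or 8 in the other 4 comparisons, beside 49.2% and 45.8 to 55.7% of all genes.

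The values of markers of other cell types stand here beside those of the members. All 12 naive pluripotency genes fell in C1MV, C1MDT, C1HV and C1HDT against day 0 and 11 of 12 in C1T, and the summed level of this list went from between 8515.7 and 9829.9 CPM at day 0 to between 1559.5 and 1990.5 in C1T, between 3185.3 and 3933.3 in C1MV and C1HV and between 1752.6 and 2075.4 in C1MDT and C1HDT. Against C1T, 10 of the 12 were higher and 1, Nr0b1, lower in C1MV and in C1HV, the groups in which Tfap2c was higher, and 3 were higher in C1MDT and in C1HDT, where 6 and 4 were lower, beside 28 to 33.5% of all genes called in these comparisons. Tcl1 and Fbxo15 were higher than in C1T in all 4 groups, by 2.16 ± 0.12 and 1.204 ± 0.08 in C1MV and by 0.53 ± 0.13 and 0.28 ± 0.08 in C1MDT (log2). Of 12 extraembryonic endoderm markers, 11 could be tested. All 11 rose in C1MV vs C1M and in C1HV vs C1H, and 9 in C1MDT vs C1M and in C1HDT vs C1H, whereas in C1T vs C1 1 rose and 2 fell, beside 49.2% of all genes called there. Their summed level lay between 786 and 1315 CPM in C1T and between 1276 and 1646 in the other day 4 libraries, with Afp at the floor in every group. Much of that sum is Apoa1 and Ttr, which were high in C1T too, whereas Amn rose from 2.69 CPM in C1 to 3.74 in C1T on average and from 6.11 in C1M to 89.6 in C1MV. Of 8 tested primitive streak genes, 2 rose and 1 fell in C1T, 3 rose and 2 fell in C1MV, 3 and 3 for C1MDT, 3 and 1 for C1HV and 3 and 3 in C1HDT, each against its day 0 group. In C1T Lhx1 and Wnt3 were those that rose, from low means of 0.388 and 0.369 CPM in C1 to 1.67 and 5.25 CPM. The Lhx1 libraries overlapped (edgeR adjusted p = 0.0396). Gsc, a gene of the anterior streak, fell in all 5 comparisons, from a mean of 9.54 CPM in C1 to 0.119 in C1T. The summed level of that list lay between 61.4 and 91.5 CPM in all groups, with T, the classical streak gene, at the floor in every group.

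Of 11 genes of surface ectoderm and amnion, 8 were tested, and 1 rose and 2 fell in C1T vs C1 (49.2% of all genes called). In the other comparisons with day 0, 2 rose and 2 fell in C1MV, 2 and 1 for C1MDT, 2 and 1 for C1HV and 2 and 4 in C1HDT, beside 45.8 to 55.7% of all genes. In C1T Grhl2, a factor of surface epithelium, rose (1.86 ± 0.30, edgeR adjusted p = 2.23e-08) and Grhl3 (-2.03 ± 0.45) and Krt8 (-1.32 ± 0.36) fell, whereas Krt8 rose in the 4 other comparisons, by between 0.69 and 1.36. Grhl2 was higher in C1T than in the 4 other day 4 groups, by between 0.87 and 1.66 on the log2 scale, as Tfap2a was in 3 of them. It was the only gene of the list with such a call. Of the 8 tested, 2 were lower in C1T than in C1MV, C1MDT and C1HV, and 3 lower than in C1HDT. From 28 to 33.5% of all genes were called in these comparisons. The sum of the list lay between 26.9 and 69.5 CPM over all libraries, with Krt5 at 0 in each and Krt14 at the floor. Of 7 germ cell genes, 1 rose and 3 fell in C1T vs C1, a count also found in C1MDT, C1HV and C1HDT, and 2 rose and 3 fell in C1MV. In C1T, Kit (-2.71 ± 0.14), Prdm14 (-3.47 ± 0.26) and Itgb3 (-2.66 ± 0.32) fell and Prdm1 rose (1.56 ± 0.41), and the sum of that list was between 171 and 314 CPM at day 0 and between 33.8 and 82.8 CPM at day 4. The part of any of these cell types in the levels of the trophoblast factors was not tested.

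**Figure D4:**
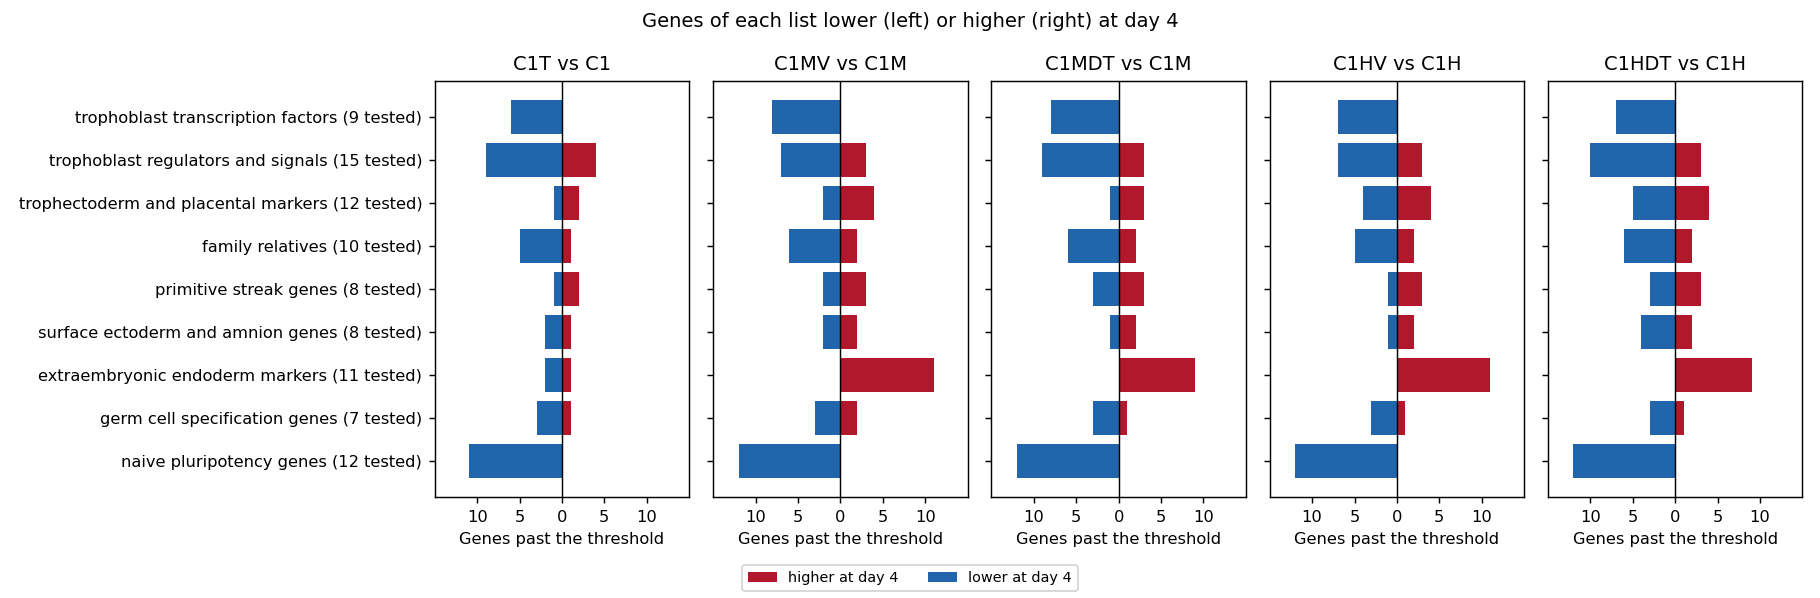
Number of tested genes of each list past the threshold (horizontal axis; lower at day 4 to the left, higher to the right) in the 5 comparisons of day 4 with day 0, by edgeR at an adjusted p under 0.05. The trophoblast transcription factors extend to the left only (6, 8, 8, 7 and 7 of 9), as the naive pluripotency genes do, and the extraembryonic endoderm markers extend to the right in the 4 comparisons that start from C1M or C1H.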

How the data were processed

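RNA of 32 ESC libraries, 4 per group, was sequenced from 3′ ends (QuantSeq). The authors trimmed the reads, aligned them to mm10 with STAR and deposited tables of raw counts per gene from uniquely placed reads, from which the unique reads assigned to no gene (19.5 to 23.1% at day 0 and 10.1 to 15.7% at day 4) were left out here. Groups follow the labels. The labels describe culture with serum and the study's methods 2i and LIF. They call the 4 replicates of each group biological, while the study describes its heatmap columns as averages over 4 samples of a single experiment. The replicates are taken as separate cultures, which neither states, so that p-values may in part measure technical spread. The 15280 genes that reached 1 CPM in 4 or more libraries entered the tests in R 4.3.3 with edgeR 4.0.16 (TMM, quasi-likelihood test, 1 fit over all 8 groups, two-sided) at a Benjamini-Hochberg adjusted p under 0.05. DESeq2 1.42.0, other scalings, no filter, a replicate block, fits of only the groups compared and leaving out each library were alternatives. The fits were also run on simulated data, the outcome of which is not reported here. 0 of 48 pairs of libraries within groups were identical. Fold changes are log2 with SE, and levels for r used a prior count of 2.

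The 10 transcription factors and the lists of other genes were chosen with earlier results of these data known. From each list up to 4 genes with the smallest adjusted p in the comparison described were named, besides some defining markers and other list genes that were named after their values were seen. For each member called in any pairwise comparison, the 3 genes with the highest r were named, except 1 gene that is not reported here. Exact counting intervals are at 95%. Promoter windows were taken from RefSeq, which had one or more for 7 members.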

Additional observations from a re-analysis of the deposited data

Results flagged for a closer look

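In 6 of 54 groups of 4 libraries tested for it, 1 library lay far from the other 3 by Dixon's criterion, which chance alone meets in about 1 in 20 groups. Gata2 was at 0.566 CPM, a single count, in C1 replicate 2, against 2.52 to 2.87 in the others. Gata3 was at 1.30 CPM in C1HV replicate 4, against 2.84 to 3.10. Tfap2a was at 8.91 CPM in C1M replicate 1, against 4.13 to 4.89, and 4 of its calls were lost without this library. Elf3 was at 79.2 CPM in C1M replicate 4, against 91.6 to 93.6. Hand1 was high in C1H replicate 2 (5.23 CPM, against 1.70 to 2.20) and in C1T replicate 3 (5.24 CPM, against 1.66 to 1.96), and the latter library is among those on which each Hand1 difference from C1T that was called depends.

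The change from day 0 to day 4 differed from that of C1T, by the test of the difference itself, for 5 genes. In the 4 contrasts 21.9 to 25.2% of all genes were called. On the log2 scale the difference was 1.98 (C1MV), 1.17 (C1MDT), 1.54 (C1HV) and 1.27 (C1HDT) for Elf3, and 0.84 (C1MV) and 0.78 (C1HV) for Tfap2c. It was -1.70, -1.68, -1.56 and -1.57 in the same 4 groups for Tfap2a, -2.74 (C1MV) and -2.75 (C1MDT) for Hand1, and 1.82 (C1HV) for Gata3. Each of the Tfap2a, Hand1 and Gata3 calls was lost on leaving out at least 1 library. These contrasts share the libraries of C1 and C1T.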

How the results depend on the processing

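The 6 alternatives to edgeR's main test were RLE or library-size scaling, DESeq2, no filter, a replicate block and only the groups compared. No member value called in the main test or in the alternative changed direction between them. Values called in neither were not checked for direction. Of 1134 member values, 1124 kept their side of the threshold, 6 lost a call and 4 gained one. The number of members called in C1HDT vs C1T went from 2 to 1 with library-size scaling, with DESeq2 and with no filter, since Tfap2a was lost, and the cause was not tested. Library-size scaling moved the median of all genes to 0.12 in C1M vs C1 and C1H vs C1, -0.10 in C1MDT vs C1M and -0.14 in C1HDT vs C1H.

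On leaving out single libraries, 45 of 63 member calls were kept throughout. The 45 include calls of Gata2 and Cdx1, which passed the filter through day 0. The 63 include calls of the same gene in comparisons that share libraries. The number called ranged from 0 to 1 (C1H vs C1), 5 to 6 (C1T vs C1), 7 to 8 (C1MV vs C1M and C1MDT vs C1M), 6 to 7 (C1HV vs C1H), 2 to 4 (C1MV vs C1T), 1 to 3 (C1MDT vs C1T), 2 to 3 (C1HV vs C1T and C1MDT vs C1MV) and 1 to 2 (C1HDT vs C1T). For the differences in day response from C1T it ranged from 2 to 4 (C1MV and C1HV), 1 to 4 (C1MDT) and 1 to 2 (C1HDT).

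Replicate numbers did not pair the libraries. Deviations of same-numbered libraries had a mean r of -0.0016, every r was over 0.1 in 0 of 28 pairs of groups, and 7 of 32 libraries were most like one of their own number. With the replicate block the number of members called in C1MDT vs C1T was 2 in place of 3, as Hand1 was at -1.80, and the block changed no other member call. Depth limits Cdx2, Elf5, Gata2, Cdx1, Hand1 and Tfap2a, with at most 21 reads in a library, and Gata3 at day 4, with at most 7.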
